A study of Mus musculus with 12 samples.

Results

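The expression of 9 complement genes was followed in mouse lung and lung tumours: the classical route genes C1ra, C2 and C4b, the central component C3, the alternative route genes Cfb and Cfp, the inhibitor Serping1, and the receptors C3ar1 and C5ar1. They were chosen by name as 9 of the 78298 gene identifiers in the count table, all 9 were found, and all 9 passed the filter on low counts.

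Complement is a set of blood and tissue proteins that mark particles and cells for removal. A classical and a lectin route start it by cleaving C4 and C2, an alternative route amplifies it through factor B, and all routes meet at C3. Fragments released from C3 and C5 act on receptors of myeloid cells, and dedicated inhibitors hold each step in check. In lung, type 2 alveolar cells, fibroblasts and macrophages are known to make several of these proteins locally, although most plasma complement comes from liver.

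RNA was sequenced from 12 mouse lung libraries, with 3 in each of 4 groups: VEH-treated normal and tumour tissue, and HDM-treated normal and tumour tissue. Tumour libraries came from macroscopic LLC tumours and normal libraries from adjacent lung, both cut out under a microscope, and HDM is house dust mite, given chronically according to the series' design text. All 4 groups come from the lungs of tumour-bearing mice, so the normal groups are not lung of tumour-free animals. The labels do not spell out LLC or VEH, and mouse strain, age, sex, genotype, dose and exposure time are not given in the sources used here. The 3 libraries of each group carry 3 different library-name prefixes, but the labels do not say whether a prefix stands for an animal. The spread between replicates may therefore be partly technical.

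Total counts ran from 20608682 to 32765364 per library. Each of 6 library-name prefixes joins 1 normal and 1 tumour library. The treatment labels disagree for 2 of the 6 prefixes, which join normal VEH replicate 2 to tumour HDM replicate 2, and tumour VEH replicate 3 to normal HDM replicate 3. Labels were kept as given, and results that change without these 4 libraries are stated. Normal VEH replicate 2 also stood apart from the other normal VEH libraries in alveolar macrophage markers (4 genes, summed level 7476 CPM against 119.8 and 237.5) and neutrophil markers (6 genes, 799 CPM against 40.5 and 18.6). It was lower in endothelial markers (5 genes, 1026 CPM against 2201 and 2326). The alveolar macrophage sum was also high in normal HDM replicates 1 and 2 (7846 and 5388 CPM) but not 3 (92.2 CPM). This sum was mostly Chil3 (up to 7313 CPM in normal VEH and 7705 CPM in normal HDM), whereas Marco, Siglecf and Ear2 reached at most 136 CPM. In this sum normal VEH replicate 2 lay near normal HDM replicates 1 and 2, and normal HDM replicate 3 near normal VEH replicates 1 and 3. Normal VEH replicate 2 and normal HDM replicate 3 are the normal libraries of the conflicting prefixes. Whether their labels were exchanged was not tested. CPM, counts scaled to a common library size after TMM normalisation, measure the level of 1 gene across libraries. Of markers of the labelled tissue, the 5 for type 2 alveolar cells summed to 15107 to 40195 CPM in normal libraries and 65.1 to 7782 CPM in tumours. Tumour HDM replicate 3 had the lowest sum, 65.1 CPM beside 2287 and 2282 CPM in the other HDM tumours. The 5 hepatocyte markers were at or near 0 in every library (summed level 0.425 to 3.78 CPM, with Fgb at 0 throughout).

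All 9 genes are protein-coding, and positions are from GENCODE M39 on GRCm39. C2 (ENSMUSG00000024371, 35081578 to 35117241), Cfb (ENSMUSG00000090231, 35074852 to 35081559), C4b (ENSMUSG00000073418, 34947354 to 34962912) and C3 (ENSMUSG00000024164, 57510964 to 57535155) lie on chromosome 17. C1ra (ENSMUSG00000055172, 124489364 to 124500402) and C3ar1 (ENSMUSG00000040552, 122823393 to 122833122) lie on chromosome 6. Serping1 (ENSMUSG00000023224) is at 84595705 to 84620873 on chromosome 2, C5ar1 (ENSMUSG00000049130) at 15980668 to 15993465 on chromosome 7 and Cfp (ENSMUSG00000001128) at 20791688 to 20797794 on the X chromosome.

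C2 and Cfb share much of their exon sequence with other annotated genes. The annotated gene Gm20547 runs through both on the same strand and shares 65.7% of the exon bases of Cfb and 38.4% of those of C2, yet its own count was 0 over all 12 libraries. Nelfe, on the opposite strand, shares 49.8% of Cfb exon bases, some of them also in Gm20547. That leaves 21.8% of Cfb exon bases and 57.2% of C2 exon bases in no other gene. How the authors' counting treated shared bases is not given in the sources used here. Cfb reached only 768 counts in all against 364234 for C3, and whether the level of Cfb or of C2 is understated was not tested.

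**Figure D1:**
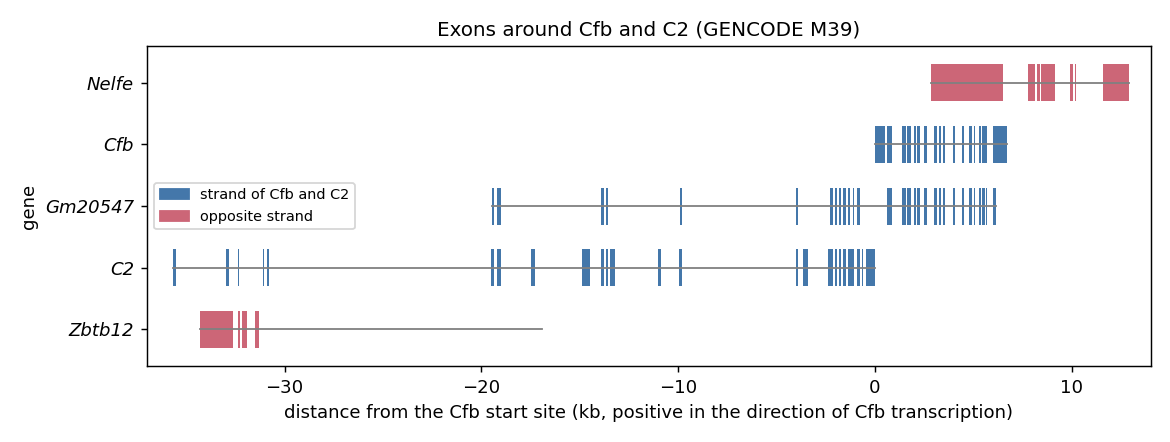
Exons of Cfb, C2, the read-through gene Gm20547 and the opposite-strand genes Nelfe and Zbtb12, by distance from the Cfb start site in kb (blue, strand of Cfb; red, opposite strand). Gm20547 repeats exons of both C2 and Cfb, and Nelfe overlaps part of Cfb.

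C4b and C1ra each have a close copy, C4a and C1rb, which could take or give reads. Of all 150-base windows of the C4b transcript, 8.17% also occur in C4a, and 26.3% of those of C1ra occur in C1rb. The copies were nearly silent, with 75 counts for C4a against 76188 for C4b and 20 for C1rb against 25486 for C1ra. Opposite-strand noncoding genes share 6.44% of the exon bases of C3 (Gm65552, 38316 counts), 6.04% of C4b (Gm65055, 2900 counts) and 16% of Cfp (Gm61816, 3275 counts). The library kit marked strand, but counting by strand is not stated, so these shares of the values are uncertain. C1ra, Serping1, C3ar1 and C5ar1 share no exon base with another gene.

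The 5 genes called in both tumour comparisons below were C3, C4b, C1ra, Serping1 and C3ar1. Their promoters are printed because their calls, 4 falls and 1 rise in tumour, were the same under both treatments. Each is given as the 250 bases before the start of the canonical transcript in GRCm39, 5′ to 3′ on the gene's strand. Capitals mark matches on either strand to TTNNGNAA, a loose form of the C/EBP site known from acute-phase genes.
C3 (chr17:57535156-57535405, minus strand): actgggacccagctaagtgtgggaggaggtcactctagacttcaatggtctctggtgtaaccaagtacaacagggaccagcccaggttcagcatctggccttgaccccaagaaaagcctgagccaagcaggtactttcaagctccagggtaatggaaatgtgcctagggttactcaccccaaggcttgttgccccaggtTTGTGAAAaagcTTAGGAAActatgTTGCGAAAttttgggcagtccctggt
C4b (chr17:34962913-34963162, minus strand): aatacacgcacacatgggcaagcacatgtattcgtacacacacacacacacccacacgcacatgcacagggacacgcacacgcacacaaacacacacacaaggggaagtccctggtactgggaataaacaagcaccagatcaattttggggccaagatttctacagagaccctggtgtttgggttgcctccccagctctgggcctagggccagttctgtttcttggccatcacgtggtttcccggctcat
C1ra (chr6:124489114-124489363, plus strand): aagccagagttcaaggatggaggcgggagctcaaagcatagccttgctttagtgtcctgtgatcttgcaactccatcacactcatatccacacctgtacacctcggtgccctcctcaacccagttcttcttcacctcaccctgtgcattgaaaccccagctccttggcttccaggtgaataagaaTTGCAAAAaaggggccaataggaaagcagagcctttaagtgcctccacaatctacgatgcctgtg
Serping1 (chr2:84605789-84606038, minus strand): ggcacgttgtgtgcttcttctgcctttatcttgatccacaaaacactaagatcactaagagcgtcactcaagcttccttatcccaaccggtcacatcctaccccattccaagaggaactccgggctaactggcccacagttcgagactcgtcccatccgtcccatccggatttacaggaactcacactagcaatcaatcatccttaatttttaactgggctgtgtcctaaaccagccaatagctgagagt
C3ar1 (chr6:122833123-122833372, minus strand): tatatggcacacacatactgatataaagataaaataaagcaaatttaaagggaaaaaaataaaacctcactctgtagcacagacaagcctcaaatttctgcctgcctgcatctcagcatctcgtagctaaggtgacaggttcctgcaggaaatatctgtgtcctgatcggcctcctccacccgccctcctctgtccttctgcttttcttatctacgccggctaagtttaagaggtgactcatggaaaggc
C3 held 3 such matches between bases -51 and -19, and C1ra held 1 on the opposite strand at -65 to -58. The other 3 printed promoters held none. Over all 9 genes, 4 promoters had a match (C3, C1ra, Cfb and C5ar1), against 36.9% of 21770 protein-coding promoters. At least 3 matches were found in 2.78% of all promoters. Interferon and NF-kB motifs were searched in the same windows on both strands: GAAA followed after any 2 bases by GAAA (ISRE), TTCNNNGAA (GAS), and GGGA followed after any 1 base by TTTCC (kB). They matched 0 of the 9 and, in that order, 3.32%, 7.7% and 0.423% of all promoters. These matches describe letters only.

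C3 was the most abundant of the 9 genes in every group when levels were set per length as TPM, which divides counts by gene length before scaling. In normal tissue its mean was 1054 ± 1390 TPM under VEH and 587 ± 313 TPM under HDM (SD, n = 3 each). Serping1 (252 ± 79.0 and 332 ± 57.9 TPM), C4b (150.3 ± 91.3 and 150.7 ± 52.7 TPM) and C1ra (93.3 ± 82.4 and 77.2 ± 17.8 TPM) followed. Under VEH every neighbour in this order overlapped the next. Under HDM only Serping1 over C4b, C1ra over Cfp and C2 over C3ar1 were separated in all libraries. In tumours the order was different. C3 (117 ± 43.3 TPM under VEH, 97.3 ± 59.2 under HDM) was followed by Cfp (79.3 ± 34.5 and 85.3 ± 20.3 TPM), and its values overlapped those of Cfp in both tumour groups. Next came Serping1 under VEH (55.9 ± 16.2 TPM) and C5ar1 under HDM (81.2 ± 11.3 TPM). C2 and Cfb were the lowest pair in both tumour groups. Both share exon bases with other genes, and whether the counting of shared bases lowered their TPM was not tested.

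**Figure D2:**
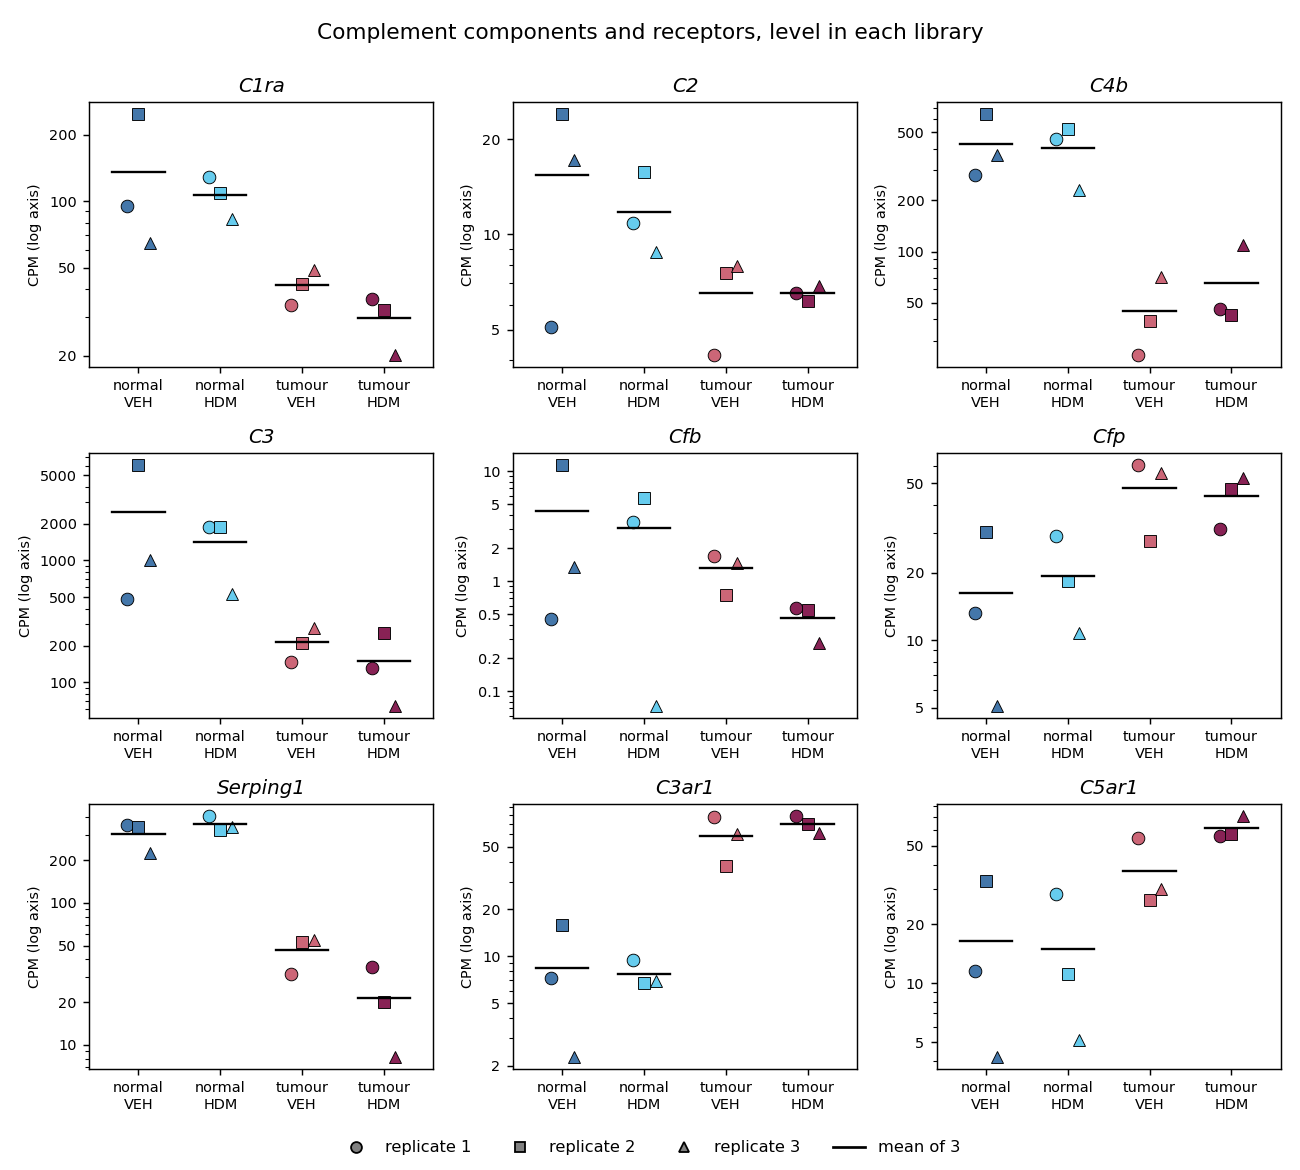
Level of each gene (CPM, log axis) in the 12 libraries, by group; symbols are replicates and lines the mean of 3. Serping1, C4b and C3 are lower in all 6 tumours than in all 6 normal libraries, and C3ar1 is higher in all 6 tumours.

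Between tumour and normal tissue, 4 of the 9 genes fell and 1 rose under VEH, and 4 fell and 2 rose under HDM. The falls were in C3, C4b, C1ra and Serping1 under both treatments, and the rises in C3ar1 under both and in C5ar1 under HDM. Calls are adjusted p-values below 0.05 (edgeR quasi-likelihood test, Benjamini-Hochberg over 22190 genes). In the same comparisons 38.9% of all genes were called under VEH (20.6% lower, 18.2% higher) and 51.9% under HDM (28.9% lower, 23% higher), so 5 of 9 (55.6%) and 6 of 9 (66.7%) are not far above the background. Libraries did not overlap for 5 of the 9 genes under VEH (4 lower, 1 higher), against 52.4% of all genes (28.5% lower, 23.9% higher). Under HDM they did not overlap for 8 of the 9 (5 lower, 3 higher), against 63.1% (33.5% lower, 29.6% higher). The median log2 change of the 9 genes was -1.70 under VEH and -1.86 under HDM, beside -0.11 and -0.08 over all genes. In bulk tissue, fewer cells of a type and less RNA per cell cannot be told apart.

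Serping1 encodes the C1 inhibitor, which blocks the C1r, C1s and lectin route proteases. In order of replicate number, the normal VEH libraries held 353, 340 and 226 CPM, and normal HDM libraries 406, 324 and 344 CPM. Tumour VEH libraries had 31.4, 52.7 and 55.0 CPM, and tumour HDM libraries 35.3, 20.2 and 8.25 CPM. No tumour library reached the lowest normal one. The log2 fold change was -2.72 ± 0.45 under VEH (SE, adjusted p 0.00159) and -4.08 ± 0.48 under HDM (adjusted p 0.000178, edgeR quasi-likelihood test). Endothelial markers moved the same way, with 5 of 5 called lower under each treatment (summed level 1026 to 2326 CPM in normal and 91.1 to 414 CPM in tumour libraries). Median log2 changes under VEH and HDM were also negative for type 2 alveolar (-2.16 and -4.02) and alveolar macrophage markers (-3.04 and -3.91). The 5 fibroblast markers summed to 508 to 1696 CPM in normal and 2573 to 4155 CPM in tumour libraries. Of these 5, 2 were called higher and 1 lower under each treatment. The part of any of these cell types in the result was not tested.

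C4b is the substrate that the classical and lectin proteases cleave. Its levels were 280, 637 and 367 CPM in normal VEH, 457, 525 and 229.5 CPM in normal HDM, 24.8, 38.9 and 70.9 CPM in tumour VEH, and 45.8, 42.5 and 109 CPM in tumour HDM. The highest tumour library, HDM replicate 3, stayed below the lowest normal one. C4b had a log2 fold change of -3.25 ± 0.55 under VEH (adjusted p 0.00185) and -2.62 ± 0.54 under HDM (adjusted p 0.00275). Calls for C4b, Serping1 and C3ar1 held in both comparisons under every alternative run and without each library in turn.

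C3 feeds all routes, and its cleavage gives the fragments that coat targets and attract cells. Normal VEH libraries had 481, 6017 and 1014 CPM and normal HDM libraries 1866, 1865 and 530 CPM. Tumours had 147, 209 and 280 CPM under VEH and 131, 253 and 64.0 CPM under HDM. All tumours lay below all normal libraries, but the normal libraries themselves spanned a wide range with replicate 2 of VEH at the top. The log2 fold change was -3.56 ± 0.94 under VEH (adjusted p 0.0143) and -3.25 ± 0.93 under HDM (adjusted p 0.0139). Without normal VEH replicate 2, the change under VEH was -1.81 and no longer called (adjusted p 0.0543), nor was it called without tumour VEH replicate 1 (-3.27, adjusted p 0.0638). Under HDM the call was lost without tumour HDM replicate 1 (-3.04) or 3 (-2.75), each at an adjusted p of 0.0564. Without the 4 libraries of conflicting prefixes the changes were -1.96 under VEH and -4.15 under HDM, and with a block for prefix -1.85 and -4.21, all called. With a replicate block the change under VEH was -2.89. With no filter on low counts it missed the threshold under VEH (adjusted p 0.059) and HDM (adjusted p 0.0569). Type 2 alveolar markers were lower in tumours too, with 1 of 5 called under VEH and 5 of 5 under HDM, and their part in the result was not tested.

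C1ra encodes the C1r protease that activates C1s. It was at 95.3, 247 and 64.5 CPM in normal VEH and 129, 109 and 83.4 CPM in normal HDM, and at 33.8, 42.3 and 49.0 CPM in tumour VEH and 36.2, 32.2 and 20.2 CPM in tumour HDM. Normal and tumour libraries did not overlap. The log2 fold change was -1.70 ± 0.44 under VEH (adjusted p 0.0132) and -1.86 ± 0.44 under HDM (adjusted p 0.00594). The call under VEH was lost without tumour VEH replicate 1 (-1.48, adjusted p 0.071) and without the 4 libraries of conflicting prefixes (-0.97, adjusted p 0.0785), and without normal VEH replicate 2 the change was -0.93.

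C2, the protease part of the classical C3 convertase, was low and not called. It was at 5.09, 23.9 and 17.2 CPM in normal VEH, 10.9, 15.7 and 8.76 CPM in normal HDM, 4.16, 7.55 and 7.94 CPM in tumour VEH, and 6.53, 6.15 and 6.88 CPM in tumour HDM. Normal VEH replicate 1 lay within the tumour range, whereas under HDM all normal libraries were above all tumours. The 4 mesothelial markers summed to 4.85, 846 and 466 CPM in normal VEH and 193, 371 and 72.7 CPM in normal HDM, ranked as C2 was. In tumours they summed to 4.15 to 69.7 CPM and were not ranked as C2 was. Their part in the C2 values was not tested. The log2 fold changes were -1.23 ± 0.48 (adjusted p 0.0625) under VEH and -0.85 ± 0.48 (adjusted p 0.154) under HDM by the edgeR quasi-likelihood test. C2 was called under VEH by the DESeq2 Wald test (adjusted p 0.0279) and without normal VEH replicate 1 (-1.65, adjusted p 0.00857), and under HDM when the 2 HDM groups were fitted alone (adjusted p 0.0354).

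Cfb, the protease part of the alternative convertase, was near the lower limit of measurement. It had 0.452, 11.3 and 1.35 CPM in normal VEH and 3.44, 5.66 and 0.0737 CPM in normal HDM, where replicate 3 held 2 counts. Tumours had 1.70, 0.744 and 1.48 CPM under VEH and 0.575, 0.546 and 0.273 CPM under HDM. Groups overlapped in both comparisons, and the log2 changes of -1.74 ± 1.25 (adjusted p 0.28) and -2.71 ± 1.32 (adjusted p 0.107) were not called. Under VEH the sign rested on normal VEH replicate 2, since the value was 0.54 without it (adjusted p 0.729). Under HDM, Cfb was called by the DESeq2 Wald test (adjusted p 0.0346), with a block for prefix (-3.06, adjusted p 0.0361), without the 4 libraries of conflicting prefixes (-3.31, adjusted p 0.0223) and without normal HDM replicate 3 (-3.16, adjusted p 0.0385).

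Cfp encodes properdin, a stabiliser of the alternative convertase that myeloid cells release. It was at 13.3, 30.4 and 5.09 CPM in normal VEH, 29.0, 18.4 and 10.8 CPM in normal HDM, 60.1, 27.7 and 55.5 CPM in tumour VEH, and 31.4, 47.2 and 52.6 CPM in tumour HDM. Tumour VEH replicate 2 lay below normal VEH replicate 2, and under HDM the groups did not overlap. The log2 change was 1.55 ± 0.59 under VEH (adjusted p 0.0579) and 1.17 ± 0.58 under HDM (adjusted p 0.113), neither of them called. Tumour was above the normal library of its prefix in 6 of 6 pairs, by 0.63 to 2.43 on the log2 scale, although 2 of these pairs join different treatments. Such agreement was not particular to Cfp. Tumour was above in 6 of 6 pairs for C3ar1 and C5ar1 too, in 0 of 6 for C2, C3, C4b, C1ra and Serping1, and in 2 of 6 for Cfb. The share of all genes with such agreement is not given here. With a block for prefix, Cfp was called under VEH (2.29, adjusted p 0.00423) and HDM (0.80, adjusted p 0.0154). Under VEH it was also called with scaling by library size only (1.67, adjusted p 0.0465), by the DESeq2 Wald test (adjusted p 0.0217), without the 4 libraries of conflicting prefixes (2.36, adjusted p 0.0372), without normal VEH replicate 2 (2.38, adjusted p 0.00948) and without tumour VEH replicate 2 (1.83, adjusted p 0.0432). Under HDM it was called when the HDM groups were fitted alone (1.12, adjusted p 0.049).

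**Figure D3:**
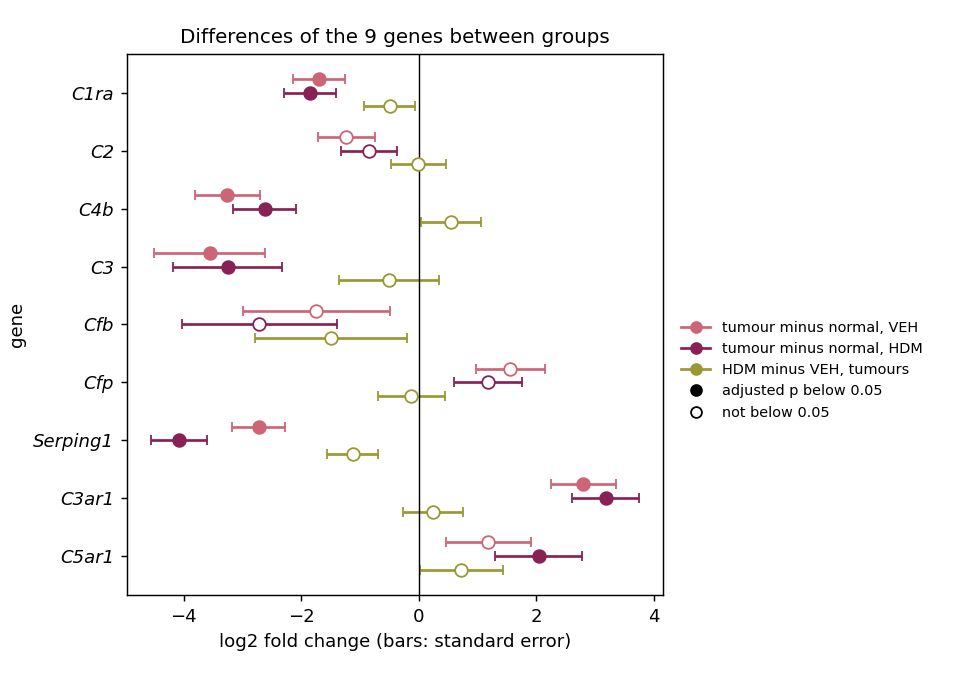
Log2 fold changes of the 9 genes with standard errors, for tumour minus normal under VEH and HDM and for HDM minus VEH in tumours; filled points have an adjusted p below 0.05. C3, C4b, C1ra and Serping1 lie left of 0 and C3ar1 right of 0 in both tissue comparisons, and no filled point belongs to the treatment comparison.

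The calls for the 2 receptors were rises. C3ar1, the receptor for the C3a fragment, was at 7.23, 15.8 and 2.27 CPM in normal VEH and 9.50, 6.72 and 6.92 CPM in normal HDM. In tumours it was at 77.8, 37.9 and 60.8 CPM under VEH and 78.1, 69.8 and 61.2 CPM under HDM. The lowest tumour was above the highest normal library. C3ar1 rose by 2.80 ± 0.55 on the log2 scale under VEH (adjusted p 0.00379) and by 3.17 ± 0.56 under HDM (adjusted p 0.00129). Without normal VEH replicate 2 the change under VEH was 3.63 (adjusted p 0.000619), and without the 4 libraries of conflicting prefixes 3.70. With a block for prefix it was 3.46.

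C5ar1, the receptor for C5a, was at 11.5, 33.3 and 4.21 CPM in normal VEH, 28.6, 11.1 and 5.16 CPM in normal HDM, 54.9, 26.5 and 30.1 CPM in tumour VEH, and 56.1, 57.4 and 70.6 CPM in tumour HDM. Tumours were above all normal libraries under HDM but not under VEH. C5ar1 rose under HDM by 2.04 ± 0.74 (adjusted p 0.0388) and was not called under VEH (1.18 ± 0.72, adjusted p 0.206). Without normal HDM replicate 1 the change under HDM was 2.92 (adjusted p 0.0162). The HDM call was narrow: it was lost in 5 of the 6 fits that left out 1 library (all but the one without normal HDM replicate 1), at adjusted p-values of 0.0598 to 0.115, with no filter on low counts (adjusted p 0.124) and without the 4 libraries of conflicting prefixes (1.76, adjusted p 0.0842). Conversely, C5ar1 was called under VEH with a block for prefix (2.29, adjusted p 0.00832), without the 4 libraries of conflicting prefixes (2.47, adjusted p 0.049) and without normal VEH replicate 2 (2.24, adjusted p 0.035).

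Macrophage and monocyte markers were mixed beside these rises. Of 6 markers, 3 were called higher and 1 lower in tumour under VEH, and 2 higher and 2 lower under HDM. Fcgr1 ran from 2.50 to 12.8 CPM in normal and 36.0 to 94.1 CPM in tumour libraries, whereas Lyz2 ran from 2450 to 12243 CPM in normal and 1110 to 3268 CPM in tumour. The summed level of the 6, which was mostly Lyz2, was 2584 to 12590 CPM in normal and 1521 to 3737 CPM in tumour libraries. Adgre1 ran from 10.2 to 46.2 CPM in normal and 42.5 to 90.2 CPM in tumour libraries, and Csf1r from 70.3 to 147 and 140 to 234 CPM. Mertk went the other way (22.7 to 80.4 and 8.03 to 21.1 CPM), and Cd68 ran from 8.84 to 176 and 77.9 to 145 CPM. Neutrophil markers, the other cells known for C5ar1, summed to 18.6 to 799 CPM in normal and 11.1 to 65.3 CPM in tumour libraries, with 2 of 6 called lower under VEH and 0 of 6 called under HDM by the edgeR quasi-likelihood test. The part of either cell type in the receptor values was not tested.

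House dust mite exposure made no called difference to any of the 9 genes in normal tissue. In that comparison 0% of all genes were called by the edgeR quasi-likelihood test and 0 of the 9 had an unadjusted p below 0.05, against 5.54% of all genes, and the DESeq2 Wald test also called 0 of 9. Normal VEH and HDM libraries overlapped for all 9, whereas 10.3% of all genes did not overlap (4.47% higher, 5.85% lower). The log2 changes from VEH to HDM ran from -0.82 ± 0.85 (C3) to 0.25 ± 0.58 (Cfp). For C3 the sign rested on normal VEH replicate 2: without it the value was 0.93, and without the 4 libraries of conflicting prefixes 1.33 (adjusted p 0.339). Without that replicate C2 (0.085), C4b (0.32), Cfb (1.76), C1ra (0.42), C3ar1 (0.70) and C5ar1 (0.93) also turned from negative to positive. Normal VEH replicate 2 and normal HDM replicate 3 have prefixes that conflict with the treatment labels. Every value of this comparison therefore rests partly on labels in doubt. Standard errors over the 9 genes ran from 0.42 (Serping1) to 1.21 (Cfb), which limits what could be detected.

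In tumours, 0 of the 9 genes were called between HDM and VEH by the edgeR quasi-likelihood test, where 0.0946% of all genes were (0.00901% higher, 0.0856% lower), and the DESeq2 Wald test called 0 of 9 as well. Serping1 had the only unadjusted p below 0.05 (0.024), where 16.7% of all genes had one, with a log2 change of -1.13 ± 0.43 and an adjusted p of 0.244. Tumour HDM replicate 1 (35.3 CPM) lay above tumour VEH replicate 1 (31.4 CPM), so the groups overlapped. Its tumour-normal difference was more negative under HDM by -1.35 ± 0.60 (interaction, unadjusted p 0.0462), which did not pass either (adjusted p 0.526). C5ar1 was higher in every HDM tumour than in every VEH tumour (0.72 ± 0.71, adjusted p 0.641), and 22% of all genes had tumour groups that did not overlap (11.3% in that direction). Cfb was lower in every HDM tumour (-1.49 ± 1.29, adjusted p 0.593), as were 10.7% of all genes. C2 was nearly level, at 6.55 ± 2.08 CPM under VEH and 6.52 ± 0.368 CPM under HDM (SD, n = 3). The interaction was called for 0 of the 9 genes and 0% of all genes (edgeR quasi-likelihood test; 1 of the 9 and 9.39% of all genes at an unadjusted p below 0.05, and 0 of the 9 by the DESeq2 Wald test). The 10 interferon response markers summed to 895 to 1563 CPM in VEH tumours and 110 to 362 CPM in HDM tumours, with 2 of 10 called lower under HDM. The 5 endothelial markers summed to 269 to 414 CPM in VEH and 91.1 to 250.02 CPM in HDM tumours, and the 5 T and NK cell markers to 27.5 to 46.2 CPM and 1.18 to 11.03 CPM. Their median log2 changes were -1.07 and -2.26, with 0 of 5 markers called in each list. Neither sum overlapped between the tumour groups, where 22% of all single genes did not overlap either. Several complement genes, Serping1 among them, are known to respond to interferon, and the part of any of these markers in the Serping1 value was not tested.

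A list of 43 other complement genes put the 9 in context, of which 34 passed the filter on low counts. Under VEH 4 of the 34 rose and 7 fell in tumour (32.4%, against 38.9% of all genes), and under HDM 5 rose and 17 fell (64.7%, against 51.9%). Their median log2 change was -1.18 under VEH and -1.47 under HDM, beside -0.11 and -0.08 over all genes. Of the 12 genes tested at the start of the cascade, 4 rose and 2 fell under VEH, and 4 rose and 4 fell under HDM. C1qa, C1qb and C1qc, the chains of the recognition molecule C1q known from macrophages, rose together under both treatments. C1qa went from 62.0 ± 32.2 to 347 ± 49.0 CPM under VEH (log2 change 2.48 ± 0.38, adjusted p 0.00118) and from 59.0 ± 17.2 to 215 ± 29.3 CPM under HDM (1.86 ± 0.38, adjusted p 0.00244). C1qb rose by 2.83 and 2.28 and C1qc by 2.81 and 2.17. Under VEH the change of C1qb was 3.47 without normal VEH replicate 2 and 3.65 without the 4 libraries of conflicting prefixes, where that of C1qc was 3.46.

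The proteases that act beside C1q split. C1s1, the partner protease of C1ra, fell under VEH (log2 change -2.03 ± 0.47, adjusted p 0.0077) and under HDM (-1.43 ± 0.46, adjusted p 0.024). Without normal VEH replicate 2 (536 CPM, beside 177 and 122) the change under VEH was -1.13, still called, and it was -1.20 without the 4 libraries of conflicting prefixes. The call for C1s1 under HDM was lost in 5 of 6 fits without 1 library, all but that without normal HDM replicate 2 (adjusted p 0.058 to 0.118 in the 5). Gm16567, on the opposite strand, shares 16.6% of C1s1 exon bases with 16432 counts against 46313. Masp1, a protease of the lectin route, rose under VEH from 12.4 ± 16.0 to 81.1 ± 47.7 CPM (2.71 ± 0.83, adjusted p 0.0271) and under HDM from 4.12 ± 0.960 to 119 ± 26.1 CPM (4.85 ± 0.92, adjusted p 0.0019). Its tumour levels ran from 52.8 to 145 CPM. Without normal VEH replicate 2 (30.8 CPM, beside 2.14 and 4.13) the change of Masp1 under VEH was 4.70, and without the 4 libraries of conflicting prefixes 5.03. The call under VEH was lost without normal VEH replicate 1 (adjusted p 0.0548) or 3 (0.0826) or tumour VEH replicate 1 (0.0899).

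Calls among terminal genes and regulators were all falls. Of 3 terminal genes tested, 1 fell under VEH and 2 fell under HDM. C7, a member of the membrane attack complex, had a log2 change of -3.49 ± 1.09 under VEH (adjusted p 0.0286) and -5.76 ± 1.21 under HDM (adjusted p 0.0032). The call for C7 under VEH held in 1 of 6 fits without 1 library, that without normal VEH replicate 2, and was lost in the others (changes -3.86 to -2.73, adjusted p 0.0523 to 0.108) and without the 4 libraries of conflicting prefixes (-4.28, adjusted p 0.106). Hc, which encodes C5, the source of C5a, went from 320 ± 259 to 59.7 ± 41.4 CPM under VEH (-2.42 ± 1.31, adjusted p 0.16, not called) and from 709 ± 423 to 37.5 ± 35.1 CPM under HDM (-4.24 ± 1.42, adjusted p 0.0288). The call for Hc was lost without normal HDM replicate 1 or 2 or tumour HDM replicate 2 (adjusted p 0.0592, 0.0626 and 0.0841) and without the 4 libraries of conflicting prefixes (0.122). Without tumour HDM replicate 1 its change was -4.92. Of 11 regulators tested, 4 fell under VEH and 9 under HDM, and 0 rose in either by the edgeR quasi-likelihood test. Of all genes 20.6% fell under VEH and 28.9% under HDM. Cd55, which speeds the decay of convertases, went from 143 ± 41.5 to 27.5 ± 26.1 CPM under VEH (-2.38 ± 0.80, adjusted p 0.0381) and from 115 ± 45.8 to 5.77 ± 3.69 CPM under HDM (-4.32 ± 0.88, adjusted p 0.00266). The call for Cd55 under VEH was lost without normal VEH replicate 1 (adjusted p 0.0899) or 3 (0.0833), tumour VEH replicate 1 (-1.78, adjusted p 0.0868) or 3 (0.128), and without the 4 libraries of conflicting prefixes (0.195). Without tumour VEH replicate 2 its change was -3.44. Cd59a, an inhibitor of the attack complex, had changes of -2.73 ± 0.57 and -3.81 ± 0.60 (adjusted p 0.00461 and 0.000641), and Susd4 one of -4.08 ± 1.02 under HDM (adjusted p 0.00736). The change of Cd59a under VEH was -3.60 without tumour VEH replicate 2, and the call for Susd4 was lost without the 4 libraries of conflicting prefixes (adjusted p 0.0972). Tumour HDM replicate 3 was lowest in these genes, with 6 counts of Hc and 0 of C7 and Susd4. Without it the changes under HDM were -3.52 for Hc, -5.03 for C7, -3.71 for Cd55 and -3.33 for Susd4, all still called.

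Cfd, the protease that cleaves factor B, ran from 0 to 22.7 CPM in normal libraries and was not called (adjusted p 0.459 and 0.208). Of 6 other receptor genes, Itgam, a chain of complement receptor 3, rose under HDM (2.34 ± 0.82, adjusted p 0.0335) and Cr2, named after its values were seen, fell (-3.34 ± 1.05, adjusted p 0.0209). The call for Itgam was lost without normal HDM replicate 2 (adjusted p 0.104) or 3 (0.0915), tumour HDM replicate 2 (0.0873) or the 4 libraries of conflicting prefixes (0.132), and its change was 3.16 without normal HDM replicate 1. That for Cr2 was lost without normal HDM replicate 2 (0.0679), tumour HDM replicate 3 (0.0803) or those 4 libraries (0.0742), and its change was -4.89 and -2.62 without tumour HDM replicates 1 and 2. Of the 6 receptor genes, 0 were called under VEH by the edgeR quasi-likelihood test. Between HDM and VEH, 0 of the 34 were called in normal tissue and 0 in tumours by that test, with 0 and 4 at an unadjusted p below 0.05, beside 5.54% and 16.7% of all genes. Tumour groups did not overlap for 8 of the 34 lower and 2 higher under HDM, beside 10.7% and 11.3% of all genes. In normal tissue these were 0 lower and 3 higher, beside 5.85% and 4.47%. C1qa, C1qb and C1qc were among the 8. They reached at most 246, 254 and 169 CPM in HDM tumours and at least 311, 266 and 220 CPM in VEH tumours. The DESeq2 Wald test called 2 of the 34 in tumours, both lower under HDM: Cd55 (-2.29 ± 0.76, adjusted p 0.0452) and Cd55b (adjusted p 0.0107), for which no fold is given because all 3 HDM tumours had 0 counts and the VEH tumours 2, 14 and 9. Both were named after their values were seen.

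**Figure D4:**
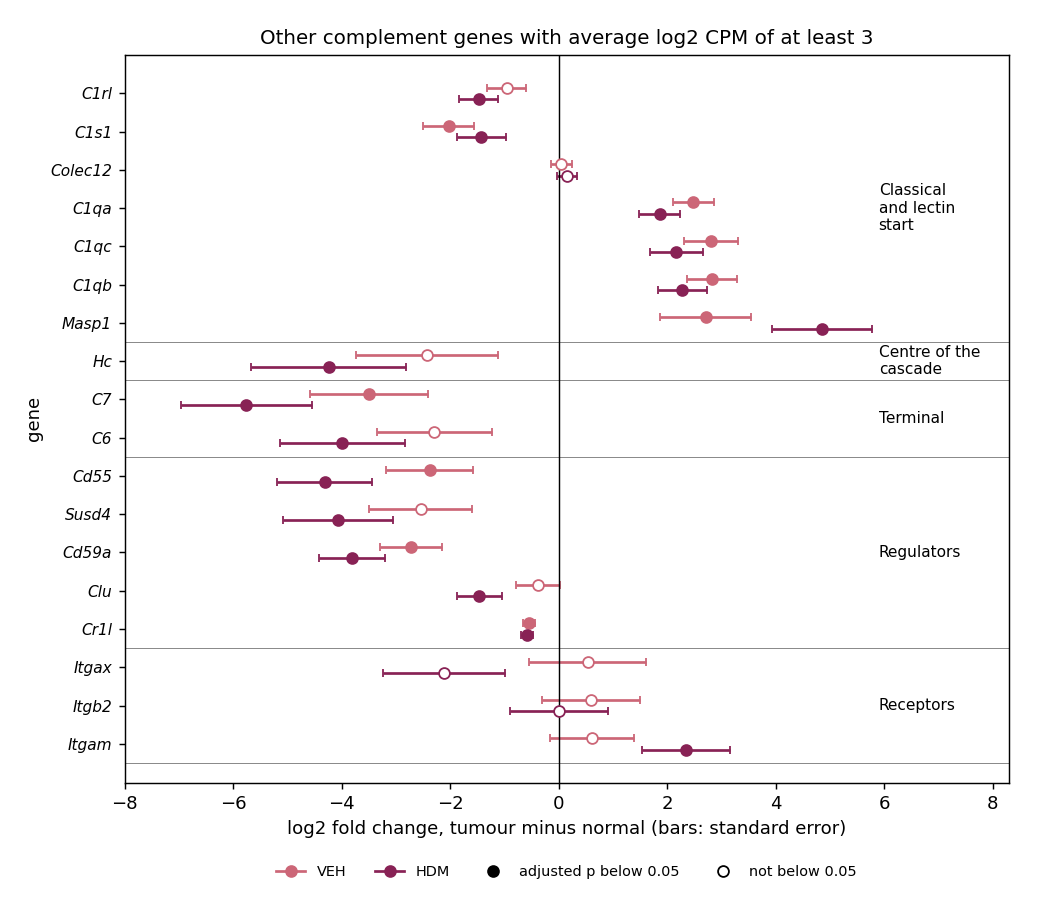
Tumour minus normal log2 fold change with standard error of other complement genes with an average log2 CPM of at least 3, by role, under VEH and HDM; filled points have an adjusted p below 0.05. C1qa, C1qb, C1qc and Masp1 lie right of 0, and C7, Cd55 and Cd59a lie left of it.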

How the data were processed

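The authors deposited 1 table of raw gene counts for the 12 libraries, with gene lengths, per the file headers. Per the submitters' processing notes, the tools were Trim Galore, STAR, featureCounts and Subread, and the build was mm39. Their versions, the annotation and the strand setting of the counting are not given in the sources used here. Symbols came from GENCODE M39 on GRCm39, which held 78168 of the 78298 identifiers. The 9 genes, the other lists, the motifs and the tests were chosen with earlier results of these data known.

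Counts were tested with edgeR 4.0.16 in R 4.3.3 (quasi-likelihood test, TMM scaling, 1 coefficient per group over all 12 libraries), after filterByExpr with a minimum count of 10 left 22190 genes. P-values were adjusted by Benjamini-Hochberg over these genes and called below 0.05. Standard errors were derived from each log2 fold change and its F statistic (their ratio, with F under a square root). CPM use TMM-scaled library sizes, TPM use the deposited lengths, and per-library log2 differences use log2 CPM with a prior count of 2. No per-sample column was left without a sample. The 5 comparisons were tumour against normal under each treatment, HDM against VEH in each tissue, and their interaction. Comparisons share groups, so their values are given side by side and were not correlated.

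All 9 genes were named throughout. Of the 43 other complement genes, up to 4 rises and 4 falls with an average log2 CPM of at least 3 were named per comparison, with C4a, C1rb, C1s1, C1qa, Hc and Cfd in any case; some named results are not reported here. The scripts were tested on simulated data. Alternatives were DESeq2 1.42.0 (size factors and Wald test), library-size scaling, no filter, the compared groups alone, blocks for replicate number or prefix, and leaving out libraries. Same-numbered libraries did not deviate together (r -0.355 to 0.279 over the comparisons), and libraries of the same prefix did not either (r -0.219 to 0.179). Such low values cannot exclude a pairing by number or by prefix. The main fit has no block because 2 of the 6 prefixes conflict with the treatment labels.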

Additional observations from a re-analysis of the deposited data

How the results depend on the processing

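C4b, Serping1 and C3ar1 kept direction and call in both tumour comparisons under every setting run. Without each library in turn, 3 to 6 of the 9 genes were called under VEH (5 with all libraries, 3 without tumour VEH replicate 1) and 4 to 6 under HDM (6 with all). Of the 34 other complement genes, 6 to 14 were called under VEH (11 with all; 6 without tumour VEH replicate 1, 7 without normal VEH replicate 1 and 7 without tumour VEH replicate 3) and 14 to 19 under HDM (22 with all; 14 without normal HDM replicate 2 and 14 without tumour HDM replicate 2). With no filter on low counts 7 of them were called under VEH, and the DESeq2 Wald test called 2 between HDM and VEH tumours, where edgeR called 0. The share of all genes called in these fits is not given here, so these counts cannot set complement genes apart from genes at large. The causes were not tested.

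With a replicate block the calls stayed at 5 and 6 of the 9 genes in the tumour comparisons and 0 in the others. Under that block, C4b in normal tissue was 0.015, C2 in tumours 0.083 and the interaction of C3 -0.50. Correlations of same-numbered pairs were mostly low, and in no comparison did every library correlate best with its own number. With library-size scaling C2 in tumours was 0.080.

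The block for prefix turned these uncalled log2 values: Cfb 0.95 under VEH, Cfp -0.12 in normal tissue, in tumours C4b -0.82, C3ar1 -0.81 and C5ar1 -1.20, and in the interaction C2 -0.22, C3 -2.36, C3ar1 -0.61 and C5ar1 -0.63. With this block, HDM against VEH within a tissue can be estimated only because 2 prefixes join different treatments. The normal tissue and tumour values therefore depend on the 4 libraries whose labels disagree. Leaving out the 4 libraries of conflicting prefixes gave Cfb 0.54 under VEH, in normal tissue C2 0.26, C3 1.33, C4b 0.60, Cfb 2.33, C1ra 0.58, C3ar1 0.78 and C5ar1 1.35, in tumours C2 0.20, and in the interaction C2 -0.058, C3 -2.19, C3ar1 -0.50 and C5ar1 -0.71.

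Leaving out 1 library changed the sign of other uncalled values, whose ranges follow. Cfb under VEH ran from -2.27 to 0.54. In normal tissue C2 ran from -0.80 to 0.085, C3 from -1.31 to 0.93, C4b from -0.32 to 0.32, Cfb from -1.32 to 1.76, Cfp from -0.17 to 1.08, C1ra from -0.68 to 0.42, C3ar1 from -0.58 to 0.70 and C5ar1 from -1.01 to 0.93. In tumours C2 ran from -0.25 to 0.17, C4b from -1e-04 to 1.04 and Cfp from -0.40 to 0.067. In the interaction C2 ran from -0.093 to 0.79, C3 from -1.44 to 0.80, Cfp from -1.21 to 0.046, C1ra from -0.92 to 0.18, C3ar1 from -0.46 to 0.82 and C5ar1 from -0.21 to 1.74. The upper end in normal tissue came without normal VEH replicate 2 for all 8 genes listed there. With 3 libraries a group, and 768 counts of Cfb in all, small changes were not detectable.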

Other observations

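For each of the 9 genes, the genes most like it over the 12 libraries were listed by Pearson's r of log2 CPM among 11050 genes, as a description. All values share the same libraries and the same difference between tissues. The gene most like C1ra was its partner protease C1s1 (r 0.98), followed by Lmo4 (0.96) and Serpina3n (0.95). Serping1 was most like Spon1 (0.99), Nectin4 (0.99) and Mgp (0.99). C4b was most like Snn (0.97), Plce1 (0.96) and Pgap6 (0.96), and C3 most like Prr15 (0.98), Tmod1 (0.96) and Pygl (0.96).

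The receptors and properdin had other neighbours. Among the genes most like C3ar1 were Clmp (0.99) and the membrane protease gene Mmp14 (0.99). Cfp was most like Lrrc25 (0.97), the chemokine gene Ccl8 (0.97) and Arhgap30 (0.96), and C5ar1 most like Picalm (0.97), Gnpda1 (0.96) and Hk2, a hexokinase gene (0.96). The low genes had weaker likeness: C2 with the mesothelial marker Msln (0.89), Aldh1a2 (0.89) and Bicdl1 (0.87), and Cfb with the cytokine gene Il18 (0.88), Myl12a (0.86) and Mcemp1 (0.85).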
